A study of Mus musculus with 4 samples.

Results

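The naive-state transcription factors described here are 10 genes, Tfcp2l1, Esrrb, Klf2, Klf4, Klf5, Tbx3, Nr5a2, Nr0b1, Gbx2 and Prdm14, taken from a list of names and matched by symbol to the identifiers of the deposited count table. All 10 were found once among its 55401 genes, and all 10 were among the 15341 genes that passed the filter on low counts and were tested. The cells were R1, a mouse embryonic stem cell line, in 2 groups of 2 libraries each. The first group is labelled Usp28 KO, a knockout of the deubiquitinase gene Usp28, and the second is labelled control, with the genotype wild type. Both groups grew on 0.2% gelatin in N2B27 medium with 1 μM of the MEK inhibitor PD0325901, 3 μM of the GSK3 inhibitor CHIR99021 and 10 ng/ml of leukaemia inhibitory factor (LIF), the culture known as 2i/LIF. The labels say neither how the knockout was made, nor how many clones it rests on, nor whether replicates are separate cultures, so p-values reflect library-to-library spread alone, which may be technical.

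Naive pluripotency is the state of the cells of the blastocyst before implantation, and in culture it is held by a network of transcription factors that sit around the core factors Pou5f1, Sox2 and Nanog. LIF acts through STAT3 on Tfcp2l1, Klf4 and Gbx2, GSK3 inhibition relieves the repression that TCF7L1 places on Esrrb, Tfcp2l1 and Klf2, and MEK inhibition removes an ERK signal that drives cells out of the state. USP28 opposes the FBXW7 ubiquitin ligase, and the KLF5 protein is one of the substrates known for that ligase, but the data are mRNA counts and hold no protein level.

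The libraries held 17996611 and 18709558 counts in the Usp28 KO group and 19533608 and 16595196 in the control group. Values are counts per 1000000 counts (CPM) with libraries scaled by edgeR's TMM method (trimmed mean of M values), or the same per kilobase of annotated exon (RPKM) where genes are compared with each other. The Usp28 transcript itself stood at 181 and 177 CPM in Usp28 KO and 189 and 197 CPM in control libraries, so the gene-level count does not check the label. The 7 embryonic stem cell markers, Pou5f1, Sox2 and Nanog among them, summed to between 3036 and 3202 CPM in Usp28 KO and between 3123 and 3204 CPM in control libraries. The 7 primitive endoderm markers, mostly Gata4, had summed counts of 228 and 240 in Usp28 KO and 253 and 139 in control libraries. The 6 mesendoderm markers summed to 63 and 60 counts in Usp28 KO and 72 and 39 in control libraries, and the 6 fibroblast markers to 116 and 115 in Usp28 KO and 84 and 62 in control libraries, with Postn at 0 counts in every library. The 7 trophoblast markers summed to 2560 and 3260 counts in Usp28 KO and 2770 and 2860 in control libraries, mostly from Tfap2c, with Cdx2 at 0 and 0 in Usp28 KO and 2 and 0 in control libraries. Single markers of low count differed within these sums, and the ones given here were chosen after their values were seen. The trophoblast marker Ascl2 had 16 and 26 counts in Usp28 KO and 3 and 9 in control libraries, and the endoderm marker Sox7 had 3 and 7 in Usp28 KO and 15 and 11 in control libraries, and neither passed the edgeR test after adjustment. The 5 neural markers summed to 1676 and 1657 counts in Usp28 KO and 2256 and 1228 in control libraries, with Neurog2 at 0 in every library. The part of other cell types in the results was not tested. The libraries also differed in how their values depended on the GC content of transcripts. The rank correlation across genes of a library's log2 CPM, relative to the other libraries, with GC content was 0.050 and 0.38 in Usp28 KO replicates 1 and 2, and 0.014 and -0.39 in control replicates 1 and 2.

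Most of the naive factors had lower values in the Usp28 KO libraries, and none passed the test over all genes. The fitted log2 fold change, Usp28 KO minus control, was below 0 for 8 of the 10 and above 0 for Klf4 and Prdm14, where 50.6% of all tested genes were below 0. The median of the 10 was -0.38, against -0.0040 over all tested genes. By the quasi-likelihood test of edgeR with Benjamini-Hochberg adjustment over all tested genes, 0 of the 10 factors had an adjusted p under 0.05, where 0% of all tested genes were called higher and 0% lower. At an unadjusted p under 0.05 the same test counted 4 factors lower and 0 higher, against 4.34% and 6.86% of all tested genes, and DESeq2 counted 4 lower and 0 higher, against 3.95% and 4.76%. After adjustment DESeq2 called 0 of the 10, where it called 0.365% of its genes lower and 0.604% higher. In 4 factors, Tfcp2l1, Gbx2, Nr5a2 and Nr0b1, both Usp28 KO libraries lay below both control libraries, and in 0 did both lie above. Over all tested genes 20.4% had groups that did not overlap with Usp28 KO lower, and 21.4% with Usp28 KO higher. In the same 4 factors the difference between the group means in log2 CPM was larger than the difference between replicates in either group, which held for 29.4% of all tested genes.

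The shift of the list depended on which libraries were used. Usp28 KO replicate 1 had the lowest CPM of the 4 libraries for 9 of the 10 factors, all but Prdm14, where this held for 26.9% of all tested genes. Replicate 2 was above replicate 1 for all 10 factors in the Usp28 KO group, by 1.02 times in Tfcp2l1 and up to 1.75 times in Tbx3 and Klf5, and for 7 of the 10 in the control group, up to 1.62 times in Klf5. Over all tested genes this held for 49.3% in the Usp28 KO group and 52.2% in the control group. The share of counts from mitochondrial genes was 1.92% and 3.33% in Usp28 KO libraries, and 2.77% and 5.65% in control libraries. Usp28 KO replicate 1 was lowest in that share and control replicate 2 highest. The order of the 4 libraries was the same as in Esrrb, Klf5 and Tbx3 CPM, and it differed from that of the other factors. How many of all tested genes had this order was not counted. The part of the mitochondrial share in the results was not tested. Without Usp28 KO replicate 1 the median log2 fold change of the 10 was -0.042 and 5 of them were below 0. Without Usp28 KO replicate 2 the median was -0.59 and 9 were below 0. Without control replicate 1 it was -0.53 with 9 below 0, and without control replicate 2 it was -0.25 with 7 below 0.

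**Figure D1:**
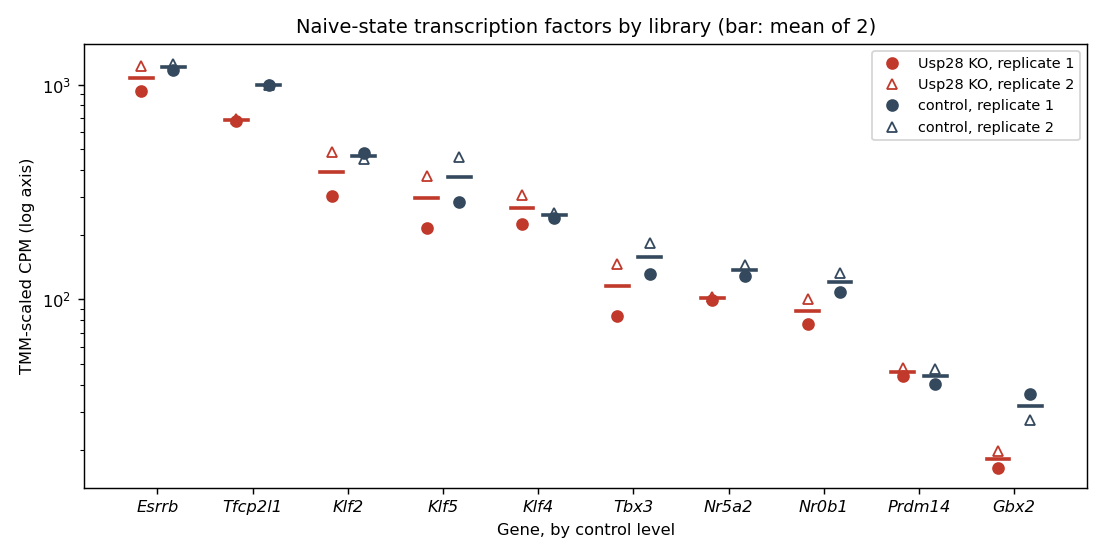
Level of each factor in each library, in TMM-scaled CPM on a log axis, with Usp28 KO at the left and control at the right of each pair, replicate 1 as filled circles, replicate 2 as open triangles and the mean of the 2 as a bar. Tfcp2l1 and Nr5a2 have tight pairs that stand apart, at 687 against 996 CPM and 101 against 137 CPM on average, while the Klf5 and Tbx3 pairs are spread widely in both groups.

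Tfcp2l1, a CP2-family factor and target of STAT3 that sustains self-renewal downstream of LIF, showed the tightest separation. The gene (ENSMUSG00000026380, mm10 chromosome 1, 118627945 to 118685168, plus strand, 9438 exon bases) had 679.6 and 694 CPM in Usp28 KO libraries, and 999 and 994 CPM in control libraries. Both Usp28 KO libraries were below both control libraries, and replicate 2 was 1.02 times replicate 1 in Usp28 KO and 0.995 times in control. The mean was 687 ± 9.87 CPM in Usp28 KO and 996 ± 3.29 CPM in control libraries (SD, n = 2 each), a ratio of 0.689. Its fitted log2 difference was -0.54 with a standard error of 0.17, at an adjusted p of 0.250 by edgeR and 0.0840 by DESeq2. This lay between -0.56 and -0.52 when any library was left out and -0.54 after correction for GC content. Of all tested genes, 6.03% had a log2 fold change at or below that of Tfcp2l1.

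Gbx2, a homeobox gene that is a STAT3 target and can sustain self-renewal when supplied in excess, was the least abundant of the 10 and had the largest log2 difference among them. The gene (ENSMUSG00000034486, chromosome 1, 89927956 to 89931179, minus strand, 2177 exon bases in 2 blocks) held 308 and 368 reads in Usp28 KO libraries, and 705 and 435 in control libraries. This was 16.5 and 19.6 CPM in Usp28 KO, and 36.1 and 27.4 CPM in control libraries, so the groups did not overlap and control replicate 1 was the highest. The means were 18.1 ± 2.23 CPM in Usp28 KO and 31.8 ± 6.12 CPM in control libraries, with a fitted log2 difference of -0.82 and a standard error of 0.21, at an adjusted p of 0.162 by edgeR and 0.0712 by DESeq2. With a library left out the log2 difference ranged from -1.01 without control replicate 2 to -0.60 without control replicate 1. An antisense transcript, D130058E05Rik, chosen after its values were seen, covers 946 of the Gbx2 exon bases, 43.5% of them. The strand setting of the counting is not given in the sources used here, so reads in the shared stretch could have gone to either gene or to neither. The antisense gene itself had 9.42 and 9.92 CPM in Usp28 KO and 8.14 and 8.13 CPM in control libraries (log2 fold change 0.25 ± 0.24, edgeR, adjusted p = 0.753).

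The nuclear receptor genes came next. Nr5a2 encodes LRH-1, an orphan receptor that activates Pou5f1 and Nanog, and Nr0b1 encodes DAX1, a receptor-family protein without the usual DNA-binding domain that binds and restrains NR5A2 and POU5F1. Nr5a2 (ENSMUSG00000026398, chromosome 1, 136842571 to 136960448, minus strand) was at 99.7 and 103 CPM in Usp28 KO libraries, and at 129 and 145 CPM in control libraries. The groups did not overlap, and the fold between their means was 0.740. Its log2 fold change was -0.43 with a standard error of 0.16 (edgeR, adjusted p = 0.326), between -0.52 and -0.36 with a library left out and -0.44 after GC correction. Nr0b1 (ENSMUSG00000025056, chromosome X, 86191764 to 86195947, plus strand) was at 76.9 and 100.3 CPM in Usp28 KO libraries, and at 108 and 132 CPM in control libraries. Those groups did not overlap either, but Usp28 KO replicate 2 was close to control replicate 1. The estimate for Nr0b1 was -0.44 with a standard error of 0.18 (edgeR, adjusted p = 0.387), and it was -0.26 without Usp28 KO replicate 1 and -0.65 without Usp28 KO replicate 2.

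Esrrb, the orphan receptor gene that GSK3 inhibition frees from TCF7L1 and the second most abundant of the 10 per kilobase, did not differ between the groups beyond its spread. Esrrb (ENSMUSG00000021255, chromosome 12, 86361117 to 86521628, plus strand) was at 932 and 1226 CPM in Usp28 KO libraries, and at 1169.8 and 1245 CPM in control libraries. Usp28 KO replicate 2 lay inside the control range and Usp28 KO replicate 1 below it. For Esrrb the log2 fold change was -0.16, with a 95% interval from -0.57 to 0.24 (edgeR, adjusted p = 0.805). The value was 0.021 without Usp28 KO replicate 1, and after GC correction it was -0.33, with both Usp28 KO libraries then below both control libraries.

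**Figure D2:**
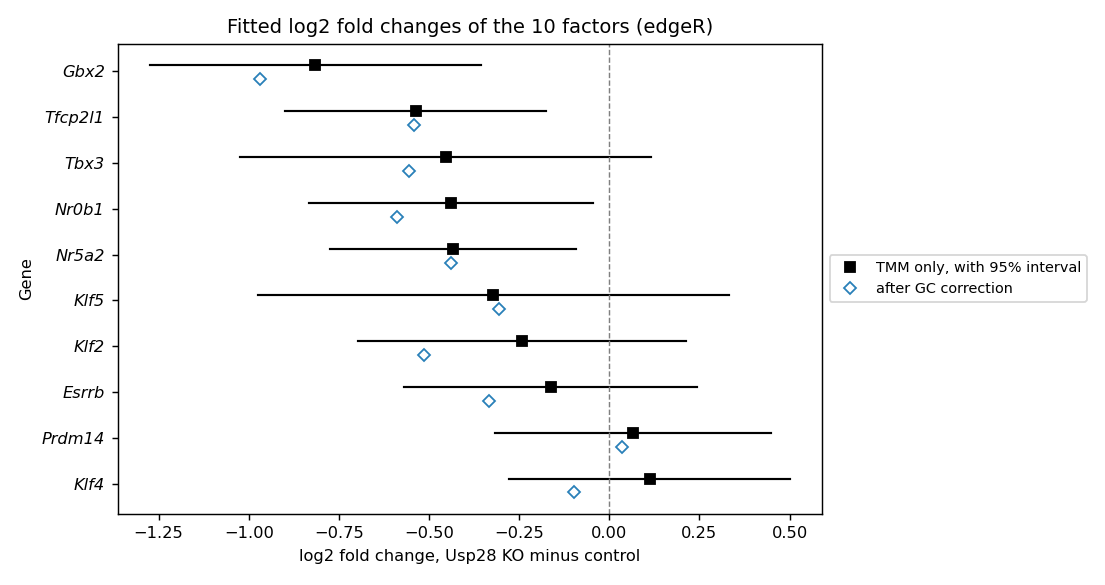
Fitted log2 fold change of each factor, Usp28 KO minus control, with its 95% interval (squares and lines) and the same value after correction for GC content (diamonds). The intervals of Gbx2, Tfcp2l1, Nr5a2 and Nr0b1 lie below 0 before adjustment for multiple tests, and the correction moves Klf2 to -0.51, Esrrb to -0.33 and Klf4 to -0.099.

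Promoters are shown for the 4 factors whose groups did not overlap, since these are the genes with the same direction in every library. They come from RefSeq on GRCm38.p6, the assembly behind mm10, and run from 250 bases before to 50 bases after the gene's start, 5′ to 3′ on the gene's strand. Capitals mark matches to any of 7 short motifs searched on both strands.
Tfcp2l1, chr1:118627695-118627994, plus strand: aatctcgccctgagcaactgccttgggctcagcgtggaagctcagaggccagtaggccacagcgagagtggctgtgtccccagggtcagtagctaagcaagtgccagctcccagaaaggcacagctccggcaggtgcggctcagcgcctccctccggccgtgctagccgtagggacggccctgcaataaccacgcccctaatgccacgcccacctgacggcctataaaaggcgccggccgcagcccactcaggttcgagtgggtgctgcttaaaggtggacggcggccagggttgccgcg
Gbx2, chr1:89931127-89931426, minus strand: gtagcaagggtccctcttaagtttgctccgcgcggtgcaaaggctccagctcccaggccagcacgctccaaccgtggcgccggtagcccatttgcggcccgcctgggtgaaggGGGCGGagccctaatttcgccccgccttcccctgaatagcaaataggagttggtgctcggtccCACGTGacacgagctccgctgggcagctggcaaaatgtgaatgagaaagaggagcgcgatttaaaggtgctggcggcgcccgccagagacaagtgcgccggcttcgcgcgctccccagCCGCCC
Nr5a2, chr1:136960399-136960698, minus strand: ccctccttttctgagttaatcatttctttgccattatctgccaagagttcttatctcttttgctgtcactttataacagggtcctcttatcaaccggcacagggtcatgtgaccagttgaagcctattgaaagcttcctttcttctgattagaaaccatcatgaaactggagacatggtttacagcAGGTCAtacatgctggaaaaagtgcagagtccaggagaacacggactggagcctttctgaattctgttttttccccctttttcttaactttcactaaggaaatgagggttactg
Nr0b1, chrX:86191525-86191824, plus strand: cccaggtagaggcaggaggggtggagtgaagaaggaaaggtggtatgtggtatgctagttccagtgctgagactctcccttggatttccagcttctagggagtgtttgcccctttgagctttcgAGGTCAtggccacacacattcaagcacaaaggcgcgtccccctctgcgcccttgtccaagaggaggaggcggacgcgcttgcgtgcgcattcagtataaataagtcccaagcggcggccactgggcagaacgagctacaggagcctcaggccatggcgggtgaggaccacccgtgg

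The motifs were the STAT palindrome TTCNNNGAA, the nuclear receptor half-site AGGTCA, the TCF site CTTTGAT, the E-box CACGTG that MYC and MAX bind, the KLF site GGGTGTG, the GC box GGGCGG that SP and KLF factors bind, and the POU site ATGCAAA. The table held 9 promoters for 7 of the 10 factors. The Tfcp2l1 window had no match to any of the 7 motifs. The Gbx2 window held an E-box whose first base lies at -74 from the gene's start and GC boxes at -137 and 44, with no overlap among them. The E-box occurred in 7.15% of 32851 RefSeq promoters of the same length and the GC box in 35.7%. Among the 9 promoters the E-box matched in 2, those of Gbx2 and Klf4, and the GC box in 3. The Nr5a2 window held a half-site at -64 and the Nr0b1 window one at -126, a motif found in 16.3% of all promoters. It matched in 2 of the 9 promoters, and a second Nr5a2 promoter, not printed, had no match to any of the 7 motifs. In the printed windows and in the second Nr5a2 promoter there was no STAT palindrome, which 8.30% of all promoters held, and among the 9 promoters it matched in 1, an Esrrb promoter, at -178. The TCF and POU sites, held by 3.73% and 4.63% of all promoters, matched in 0 of the 9. The KLF site, held by 7.95%, matched in 1. A match in such a window is a description of its letters.

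Klf2, Klf4 and Klf5 encode zinc finger factors with overlapping roles in self-renewal, and none of the 3 passed the edgeR test. Klf2, which MEK inhibition helps to keep because ERK marks its protein for loss, had 304 and 484 CPM in Usp28 KO libraries, and 479.6 and 452 CPM in control libraries. Usp28 KO replicate 2 was the highest of the 4 libraries and Usp28 KO replicate 1 the lowest. For Klf2 (ENSMUSG00000055148, chromosome 8, 72319033 to 72321656, plus strand) the log2 fold change was -0.24, with a 95% interval from -0.70 to 0.21 (edgeR, adjusted p = 0.723), and it was 0.054 without Usp28 KO replicate 1. After GC correction the Klf2 value was -0.51 and its groups no longer overlapped (edgeR, adjusted p = 0.414). Klf4, a STAT3 target and one of the reprogramming factors, had 225 and 307 CPM in Usp28 KO libraries, and 239 and 253 CPM in control libraries. Both control libraries lay between the Usp28 KO libraries. For Klf4 (ENSMUSG00000003032, chromosome 4, 55527143 to 55532466, minus strand) it was 0.11, with a 95% interval from -0.28 to 0.50 (edgeR, adjusted p = 0.875), and -0.13 without Usp28 KO replicate 2 and -0.099 after GC correction. Klf5 had 216 and 377 CPM in Usp28 KO libraries, and 283 and 458 CPM in control libraries. Its replicates differed 1.75 times in the Usp28 KO group and 1.62 times in the control group. For Klf5 (ENSMUSG00000005148, chromosome 14, 99298691 to 99315036, plus strand) it was -0.32, with a 95% interval from -0.97 to 0.33 (edgeR, adjusted p = 0.739). With a library left out it ran from -0.78 without Usp28 KO replicate 2 to 0.059 without control replicate 2.

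The balance among the 3 KLF transcripts does not depend on how libraries are scaled. Of the summed counts per kilobase of Klf2, Klf4 and Klf5, Klf4 made up 26.4% and 23.1% in Usp28 KO libraries, and 19.98% and 19.96% in control libraries. Both Usp28 KO shares were above both control shares, by 4.78 percentage points on average. Klf2 made up 58.8% and 60.2% in Usp28 KO, and 66.2% and 58.9% in control libraries, and Klf5 14.8% and 16.7% in Usp28 KO, and 13.8% and 21.2% in control libraries. These shares of Klf2 and Klf5 differed more within the control group than between the groups. As a share of raw counts Klf4 had 30.2% (95% Wilson interval 29.5 to 31.0%) and 26.3% (25.7 to 26.9%) in Usp28 KO libraries, and 23.9% (23.3 to 24.5%) and 21.8% (21.2 to 22.4%) in control libraries. The intervals cover counting error only. With 2 libraries against 2, an exact two-sided permutation test cannot give a p below 0.333. The 3 genes differ in transcript GC content, at 61.6% for Klf2, 57.7% for Klf4 and 46.9% for Klf5, and the part of that difference in the shares was not tested.

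**Figure D3:**
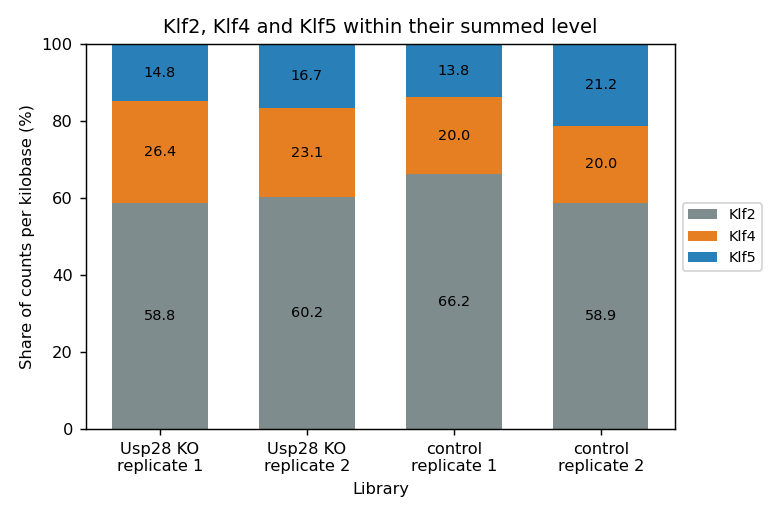
Share of Klf2, Klf4 and Klf5 in the sum of their counts per kilobase of exon, in percent, for each library as a stacked bar. Klf4 takes 26.4% and 23.1% in the Usp28 KO libraries at the left and 19.98% and 19.96% in the control libraries at the right.

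Tbx3, a T-box gene that helps to hold the naive state downstream of LIF, had replicates that differed 1.75 times in the Usp28 KO group and 1.39 times in the control group. It had 83.7 and 147 CPM in Usp28 KO libraries, and 132 and 184 CPM in control libraries. Usp28 KO replicate 1 was below both control libraries, and Usp28 KO replicate 2 lay between them. Tbx3 (ENSMUSG00000018604, chromosome 5, 119670669 to 119684724, plus strand) had a log2 fold change of -0.45 with a standard error of 0.26 (edgeR, adjusted p = 0.564). It was -0.92 without Usp28 KO replicate 2 and -0.10 without Usp28 KO replicate 1. The antisense transcript Tbx3os1 covers 115 of the Tbx3 exon bases. Prdm14, a PR-domain factor that represses FGF receptor genes and the de novo DNA methyltransferase genes, was the factor with the smallest difference. It had 44.1 and 47.8 CPM in Usp28 KO libraries, and 40.3 and 47.5 CPM in control libraries, and the groups overlapped. Prdm14 (ENSMUSG00000042414, chromosome 1, 13113457 to 13127163, minus strand) had a log2 fold change of 0.067, with a 95% interval from -0.32 to 0.45 (edgeR, adjusted p = 0.933).

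**Figure D4:**
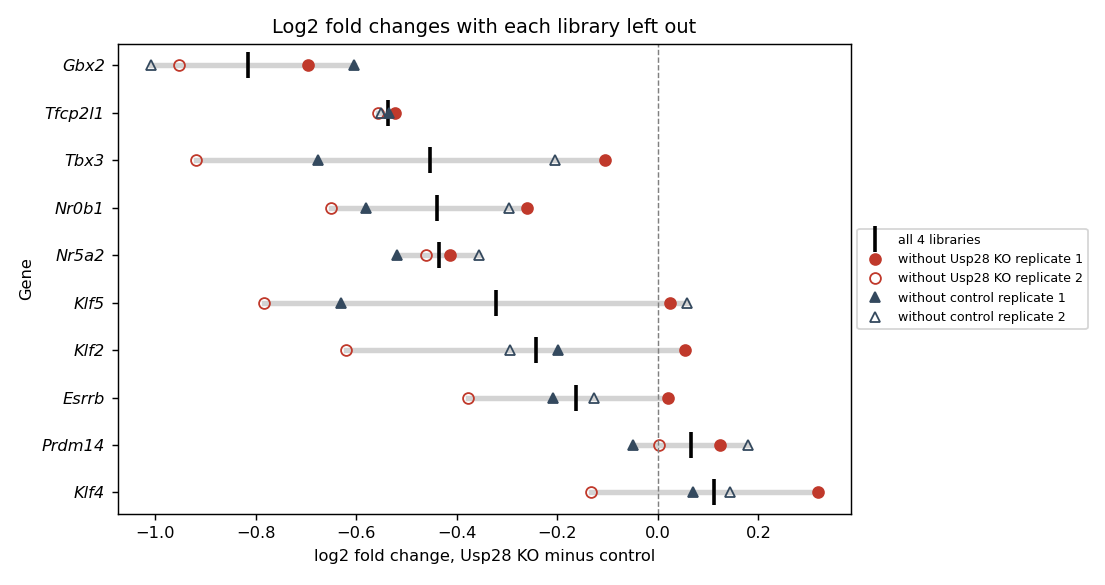
Log2 fold change of each factor, Usp28 KO minus control, from all 4 libraries (black ticks) and with each library left out (circles for Usp28 KO libraries, triangles for control libraries, filled for replicate 1). Tfcp2l1 stays between -0.56 and -0.52, while Klf5 runs from -0.78 to 0.059 and Tbx3 from -0.92 to -0.10.

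The GC content of the transcripts of the 10 factors ran from 46.9% in Klf5 to 61.6% in Klf2, with a median of 54.4% against 50.1% over all tested genes. After the GC trend of each library was taken out, 9 of the 10 log2 fold changes were below 0, with a median of -0.48 against -0.035 over all genes. For 6 factors both Usp28 KO libraries then lay below both control libraries, where 24.3% of all genes did so, and for 0 both lay above, where 19% did. The 6 were Tfcp2l1, Esrrb, Klf2, Nr5a2, Nr0b1 and Gbx2. Corrected Klf2 values were 289 and 425 CPM in Usp28 KO libraries, and 496 and 523 CPM in control libraries. Corrected Esrrb values were 912 and 1119.6 CPM in Usp28 KO libraries, and 1206 and 1353 CPM in control libraries. The corrected fits called 0 of the 10 by edgeR, and the lowest adjusted p among them was that of Gbx2 (adjusted p = 0.294). The correction assumes that the GC trend is technical, which was not tested.

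Per kilobase of annotated exon, the 10 factors stood between the 70.1 and 99.1 percentiles of the tested genes in RPKM. Exon bases pool all annotated isoforms, which lowers the RPKM of genes with exons not used in these cells. In Usp28 KO libraries the order ran from Klf2 at 213 ± 68.7 RPKM through Esrrb at 178 ± 34.3, Klf4 at 87.2 ± 19.0, Tfcp2l1 at 72.7 ± 1.05, Klf5 at 57.0 ± 21.9 and Nr0b1 at 49.0 ± 9.17 to Prdm14 at 17.9 ± 1.02, Tbx3 at 17.4 ± 6.74, Nr5a2 at 17.2 ± 0.361 and Gbx2 at 8.29 ± 1.02 RPKM. In control libraries it ran from Klf2 at 252 ± 10.6 RPKM through Esrrb at 199.7 ± 8.82, Tfcp2l1 at 106 ± 0.348, Klf4 at 80.7 ± 3.21, Klf5 at 71.2 ± 23.9 and Nr0b1 at 66.5 ± 9.51 to Tbx3 at 23.8 ± 5.55, Nr5a2 at 23.2 ± 1.94, Prdm14 at 17.1 ± 1.99 and Gbx2 at 14.6 ± 2.81 RPKM. In the Usp28 KO group the neighbours Klf2 and Esrrb overlapped, as did Tfcp2l1 and Klf5, Klf5 and Nr0b1, and Prdm14, Tbx3 and Nr5a2, while Gbx2 lay below all others. In the control group Klf5 overlapped with both Klf4 and Nr0b1, Tbx3 with Nr5a2, and Prdm14 with Gbx2, while Klf2, Esrrb and Tfcp2l1 each stood apart from their neighbours. Tfcp2l1 was below Klf4 in both Usp28 KO libraries, at 72.0 against 73.8 and 73.5 against 101 RPKM, and above it in both control libraries, at 106 against 78.4 and 105 against 83.0 RPKM.

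Within their gene families the factors were among the most abundant members. Klf2, Klf4 and Klf5 were the highest 3 of 17 KLF genes by mean RPKM in both groups. Klf10 stood at 51.8 ± 5.36 RPKM in Usp28 KO and 48.3 ± 4.46 RPKM in control libraries, and Klf9 at 46.4 ± 4.95 RPKM in Usp28 KO and 54.4 ± 6.82 RPKM in control libraries. In Usp28 KO replicate 1 both were above Klf5, at 48.1 RPKM for Klf10, 42.9 RPKM for Klf9 and 41.5 RPKM for Klf5. Esrra, the paralog of Esrrb that acts in mitochondrial metabolism, stood at 5.44 ± 0.944 RPKM in Usp28 KO and 4.99 ± 1.06 RPKM in control libraries, and Esrrg and Nr5a1 had 0 counts in every library, which allows up to 0.189 CPM in the shallowest library by a limit of 3 counts. Tfcp2l1 was the highest of 6 CP2 and grainyhead genes, followed by Ubp1 at 41.7 ± 7.22 RPKM in Usp28 KO and 42.3 ± 5.90 RPKM in control libraries. Its close relative Tfcp2 stood at 3.46 ± 0.124 RPKM in Usp28 KO and 3.03 ± 0.0111 RPKM in control libraries. The groups of Tfcp2 did not overlap, with Usp28 KO above control (log2 fold change 0.19 ± 0.19, edgeR, adjusted p = 0.756). Prdm14 was the highest of 15 PRDM genes. The next, Prdm4, had 13.3 and 17.1 RPKM in Usp28 KO libraries, both below Prdm14, and 14.7 and 16.5 RPKM in control libraries, where the genes overlapped. Tbx3 was second of 14 T-box genes by mean, after Mga. Among the 12 KLF paralogs tested, edgeR called 0 either way and counted 2 lower and 0 higher at an unadjusted p under 0.05, Klf8 and Klf12 with log2 fold changes of -0.39 and -0.46. The other paralogs gave 0 edgeR calls too, among 2 nuclear receptor genes, 5 CP2 and grainyhead genes, 8 T-box genes, 9 PRDM genes and Gbx1. Since edgeR called 0 of all tested genes, these counts of calls do not set the paralogs apart. Prdm1, which encodes the repressor BLIMP1, stood at -0.74 ± 0.25 on the log2 scale by edgeR (adjusted p = 0.306).

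**Figure D5:**
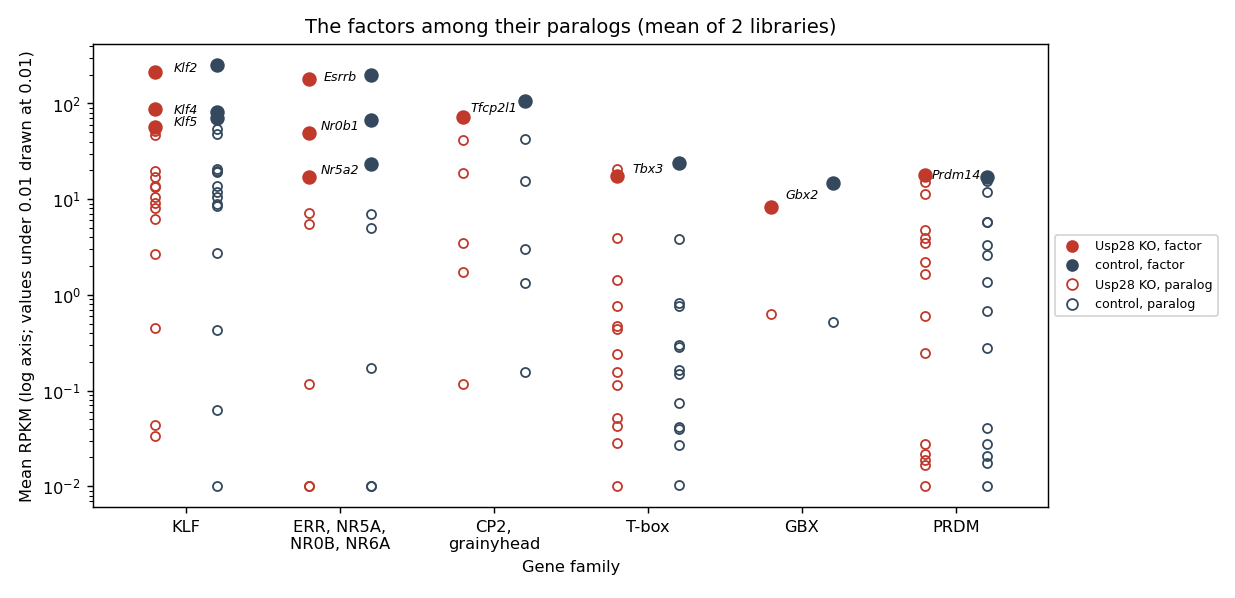
Mean RPKM (log axis, n = 2 libraries) of the 10 factors (filled, named) and of their paralogs (open) by gene family, with Usp28 KO at the left and control at the right. Klf2, Klf4 and Klf5 top the KLF family in both groups, and Gbx2 stands at 8.29 RPKM in Usp28 KO and 14.6 RPKM in control libraries.

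The genes around these factors were counted in lists. Since edgeR called 0 of all tested genes, a count of 0 edgeR calls does not set a list apart. Among the core factors, 0 of 7 passed the edgeR test, 3 had groups that did not overlap with Usp28 KO lower and 0 with Usp28 KO higher. Over all tested genes these shares were 20.4% and 21.4%. Pou5f1, Sox2 and Nanog had log2 fold changes of -0.020 ± 0.18, 0.050 ± 0.17 and -0.11 ± 0.18, and Zfp281, a zinc finger gene of the network, -0.45 ± 0.16. Among 16 naive-state genes outside the 10 factors, 0 passed by edgeR, while DESeq2 called 1 higher, the early-embryo gene Dppa3, at 17.4 and 13.98 CPM in Usp28 KO and 3.69 and 6.37 CPM in control libraries (DESeq2, adjusted p = 0.000703), and 0 lower. The AKT cofactor gene Tcl1 had a log2 fold change of -0.53 ± 0.19, Dppa2 one of -0.62 ± 0.22, and the DNA demethylase gene Tet2 one of -0.35 ± 0.21. The median over the 16 was -0.12, and 6 of them had non-overlapping groups with Usp28 KO lower and 2 with it higher.

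The list medians of the network's inputs did not share 1 direction before GC correction. They were 0.13 for LIF and STAT3 genes, -0.087 for WNT and TCF genes and -0.079 for FGF and ERK genes. After GC correction they were -0.077, -0.16 and -0.12 in the same order, against -0.035 over all tested genes. Of 13 LIF and STAT3 genes 0 passed by edgeR and DESeq2 called 1 higher, the early response gene Ier3 (log2 fold change 1.39 ± 0.26). Stat3 itself was at 147 and 159 CPM in Usp28 KO libraries, and at 168 and 167 CPM in control libraries (log2 fold change -0.13 ± 0.15, edgeR, adjusted p = 0.811). Its feedback target Socs3 had 275 and 293 CPM in Usp28 KO and 241 and 254 CPM in control libraries (log2 fold change 0.20 ± 0.16). After GC correction the Socs3 value was -0.056. Of 16 WNT and TCF genes 0 passed by edgeR and DESeq2 called 1 lower, the caudal homeobox gene Cdx1 (log2 fold change -1.42 ± 0.30). Tcf7l1, the repressor of Esrrb and Tfcp2l1, had 40.4 and 81.3 CPM in Usp28 KO and 71.8 and 90.5 CPM in control libraries, with overlapping groups (log2 fold change -0.41 ± 0.28), and Ctnnb1, which encodes its antagonist beta-catenin, a value of -0.041 ± 0.18. Of 17 FGF and ERK genes 0 passed by edgeR, and DESeq2 called 4 lower and 1 higher. The lower ones were Myc, named after its values were seen, the ETS factor genes Etv1 and Etv4, and the feedback inhibitor gene Spry4, and the higher one was Fos, also named after its values were seen. Etv1, Etv4 and Spry4 had log2 fold changes of -1.30 ± 0.22, -1.57 ± 0.28 and -1.51 ± 0.26, and the ERK phosphatase gene Dusp6 one of -0.52 ± 0.20 (edgeR, adjusted p = 0.346).

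Genes downstream of or allied to the factors gave 0 calls by either tool. Of 10 tested formative and primed genes 1 had non-overlapping groups with Usp28 KO higher and 1 with it lower, and the list median was 0.061. The Prdm14 targets Dnmt3b and Dnmt3l had log2 fold changes of -0.15 ± 0.18 and 0.060 ± 0.19. Among 7 cofactor genes, 4 had Usp28 KO below control in every library and 0 above. These included Ncoa3, a coactivator of ESRRB, at -0.21 ± 0.16, and Eed, a Polycomb subunit gene, at -0.28 ± 0.15, while Cbfa2t2, the partner of PRDM14, stood at 0.017 ± 0.16. Among 8 genes that act in the exit from the naive state, 5 had Usp28 KO below control in every library and 0 above. Flcn and Fnip2, which encode a complex that keeps TFE3 out of the nucleus, had values of -0.33 ± 0.18 and -0.35 ± 0.16, and Tfe3, an activator of Esrrb, had 0.099 ± 0.17. Fbxw7, the ligase gene opposed by USP28, had 51.6 and 48.5 CPM in Usp28 KO libraries, and 63.9 and 59.8 CPM in control libraries (log2 fold change -0.30 ± 0.17, edgeR, adjusted p = 0.536). Among the 4 ubiquitin enzyme genes linked to KLF5, Usp28 and Fbxw7 included, 2 had Usp28 KO below control in every library and 0 above. These non-overlap counts are to be read against the 20.4% of all tested genes that were lower in the same way.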

How the data were processed

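Per the labels' protocols, TruSeq libraries were made by oligo(dT) selection, 1 μg of RNA each, RNA integrity 6.5 or above. The deposited file holds raw read counts per gene, and the submitters' processing notes name HISAT2, featureCounts, DESeq2 and the mm10 build without versions. The sources used here do not give strand setting, multi-mapping or annotation release. GENCODE M21 supplied symbols and the GC content of transcripts and matched 55141 identifiers and missed 260. The table's exon length (another deposited column) gave RPKM.

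Counts were analysed in R 4.3.3 with edgeR 4.0.16: filterByExpr (minimum count 10, minimum total 15), TMM scaling, a robust quasi-likelihood fit of Usp28 KO minus control, and Benjamini-Hochberg adjustment over 15341 genes at 0.05. Log2 fold changes are given with standard errors (±) from that fit, and levels as mean ± SD over n = 2 libraries. Alternatives were DESeq2 1.42.0, limma-voom (limma 3.58.1), 3 other scalings, omitting the filter, requiring 50 counts in 2 libraries, a replicate block, offsets for a spline of GC content with 5 degrees of freedom, both together, and leaving out each library. DESeq2 gave an adjusted p for 13411 genes. The 10 factors, the 15 gene lists and the 6 marker lists were chosen with earlier results of these data known. Genes named by rule besides the 10 are Usp28, fixed regulators, the members of a list with the smallest edgeR p, and the genes most like Tfcp2l1 and Gbx2. Other named genes fall outside that rule, such as single markers and the paralogs Klf9, Klf10, Ubp1 and Prdm4, named for their level.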

Additional observations from a re-analysis of the deposited data

How the results depend on the processing

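With 0 genes called either way by edgeR as the starting point, DESeq2 called 81 higher and 49 lower, upper-quartile scaling 18 and 3, library totals without scaling factors 24 and 5, and the fit without a filter 204 and 118, while limma-voom, DESeq2 size factors, the filter of 50 counts and GC correction alone called 0. Leaving out one library, with the lone library of its group assumed to vary like the other group, gave between 49 and 146 higher and between 31 and 200 lower. A block for the replicate number gave 965 genes higher (6.29%) and 716 lower (4.67%), and 855 and 1439 when joined with GC correction. Deviations of same-numbered libraries correlated at 0.354 across genes, but with 2 pairs and no label on what a number shares, this does not show that the numbers pair the samples. Of the 10 factors, 0 were called lower in the edgeR fit with all libraries. Among the alternatives with all libraries, 1 was called lower without a filter (Gbx2), where 118 of 27042 genes were. Some fits with a library left out also called factors lower. Those calls are not listed, because a group then rests on a lone library. With the replicate block 6 were called lower (Tfcp2l1, Klf5, Tbx3, Nr5a2, Nr0b1 and Gbx2), where 716 of 15341 genes (4.67%) were. With the block and GC correction 8 were called lower, where 1439 of 15328 genes were. No alternative called a factor higher. The median log2 fold change of the 10 ran from -0.59 to -0.042 with a library left out, and was -0.042 without Usp28 KO replicate 1. Tfcp2l1, Gbx2, Nr5a2, Nr0b1 and Tbx3 kept their sign in all 14 alternatives. Signs turned with a library left out for Esrrb (-0.38 to 0.021), Klf2 (-0.62 to 0.054), Klf5 (-0.78 to 0.059), Prdm14 (-0.049 to 0.18), Klf4 (-0.13 to 0.32), Pou5f1 (-0.21 to 0.18), Sox2 (-0.035 to 0.13), Nanog (-0.26 to 0.051), Tcf7l1 (-1.01 to 0.0030), Ctnnb1 (-0.20 to 0.12), Dnmt3b (-0.34 to 0.065), Dnmt3l (-0.041 to 0.16), Cbfa2t2 (-0.082 to 0.10), Tfe3 (-0.11 to 0.27) and Esrra (-0.087 to 0.36). GC correction, alone and with the block, turned Klf4 (-0.099 and -0.11), Socs3 (-0.056 and -0.052), Dnmt3l (-0.020 and -0.016), Tfe3 (-0.056 and -0.060), Esrra (-0.080 and -0.082) and D130058E05Rik (-0.0045 and -0.0028), and with the block Cbfa2t2 (-0.00064). Upper-quartile scaling and library totals turned Pou5f1 (0.036 and 0.039) and Ctnnb1 (0.015 and 0.019). The causes were not tested.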

Other observations

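By a rule that took the smallest Euclidean distance between log2 CPM values centred over the 4 libraries, among 9997 other tested genes of at least 5 CPM, the genes most like Tfcp2l1 were Socs2, Cep63 and Prune2, at distances of 0.0213, 0.0458 and 0.0459. Socs2, a feedback inhibitor of cytokine receptors, had 97.0 and 101 CPM in Usp28 KO libraries, and 145 and 144 CPM in control libraries. The log2 fold changes were -0.55 for Socs2, -0.52 for the centrosome gene Cep63 and -0.58 for Prune2. The rule uses the same 4 libraries, so similar fold changes follow from it, here and for Gbx2 below. With only 4 libraries such closeness says little, and 141 of the 9997 genes lay within 0.2 of Tfcp2l1. The genes most like Gbx2 were Ankrd33b, Glb1l and Fam196b, at distances of 0.123, 0.149 and 0.153, with log2 fold changes of -0.89, -0.86 and -0.84, and 8 genes lay within 0.2 of it. Among the 10 factors, Tfcp2l1 and Nr5a2 were each other's nearest, as were Klf5 and Tbx3, Esrrb and Klf2, and Klf4 and Prdm14.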
